A study of Ovis aries with 3 samples.

Results

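Box C/D small nucleolar RNAs were examined in the RNA of extracellular vesicles released by sheep conceptuses, that is, the embryo with its extraembryonic membranes. The members were the rows of the deposited table that are annotated through the Rfam database of RNA families and whose name, without a copy number, begins with SNORD or is U3 or U8. This gave 270 of the 25197 rows of the table, in 100 families. The 384 rows named SNORA, in 70 families, are the box H/ACA small nucleolar RNAs and served as the comparison.

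Small nucleolar RNAs (snoRNAs) are short RNAs of the nucleolus, the site of ribosome production. Box C/D snoRNAs pair with a target RNA, mostly ribosomal RNA, and direct the methyltransferase fibrillarin to add a 2′-O-methyl group. Box H/ACA snoRNAs do the same for the conversion of uridine to pseudouridine. A few box C/D members, U3 and U8 among them, are instead needed to cut the ribosomal precursor RNA. Most box C/D snoRNAs of mammals are trimmed out of the introns of other genes and carry no poly(A) tail.

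There were 3 libraries, all of 1 group, and no control group. Intact conceptuses of day 14 of pregnancy had been cultured for 24 h, each in its own dish with 10 ml of medium containing 10% exosome-depleted fetal bovine serum. No genotype, strain or treatment is given. Which conceptus gave which library is not labelled, and part of the variation among the 3 may be technical. Vesicles were precipitated from medium passed through a 0.2 µm filter, and 5 ng of total RNA entered SMART-Seq v4 libraries, in which cDNA synthesis starts from poly(A) tails and copies whole transcripts. RNA of the conceptus cells was not analysed here, so no level below measures enrichment in or loss from vesicles, and fewer vesicles of a kind cannot be told apart from less RNA per vesicle.

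No unit is named for the values. They were taken as RPKM-type, that is, scaled for gene length and library depth, and are rounded to 1 decimal. A row counts as detected where every library reaches 1. The summed values of all rows were 17480.7, 40060.3 and 9531.8 in libraries 1, 2 and 3. In rows of U6 small nuclear RNA, which are short and of nearly 1 length, 1 read was worth an estimated 0.42, 0.54 and 0.45. The estimate is rough: of the U6 values of 1 to 5 reads, 65.5%, 68.5% and 41.1% in libraries 1, 2 and 3 lay within 0.1 of a step of a whole multiple, and 82.5%, 68.5% and 76.0% lay within the 0.05 that rounding allows. A value of 1 in such a row therefore rested on an estimated 2.37, 1.84 and 2.23 reads, and values of box C/D rows carry large counting error. The trophectoderm markers KRT8 and TP-1 (interferon tau), 2 of 7 in the table, were detected, and the summed trophectoderm list stood at 35.6, 166.9 and 36.2. Of the other trophectoderm markers, GATA3 stood at 0.9, 0.9 and 3, ELF5 at 1, 0.2 and 0.8, TFAP2C at 0.2, 0.5 and 0.4 and CDX2 at 0.5, 0.2 and 0, and GATA2 was listed at 0. Extraembryonic endoderm markers summed to 8.7, 17.2 and 11.2, with 1 of 8 detected, APOA1 at 6, 10.3 and 6.3. Leukocyte and erythroid markers summed to between 0.7 and 5.9 per library, with 0 of 8 rows detected. The part of these cells in the results below was not tested.

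Most box C/D rows gave no signal. Of the 270 rows, 195 (72.2%) were listed at 0 in all 3 libraries, and 69 of the 100 families had no copy above 0. Only 7 rows reached 1 in every library, which is 2.59%, against 3.89% of all rows of the table. A further 3 rows reached 1 in 2 libraries and 21 in only 1. In at least 1 library, 31 rows (of 270) reached a value of 1, against 17.9% of all rows, and 75 rows (27.8%) were above 0, against 78.4% of all rows. A longer gene takes a smaller value from 1 read, so these shares compare unlike rows. The part of gene length was not tested. Housekeeping genes can be listed at 0 too, among them the ribosomal protein gene RPL5 in all 3 libraries, so a listed 0 is not a measured absence.

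The 7 detected rows were SNORD22_2, SNORD113_36, U8_1, SNORD116_5, SNORD88_6, SNORD22_7 and U3_7. They belonged to 6 families, each with at least 6 copies in the table. Together they held 44.1%, 37.3% and 50.8% of the summed box C/D value of libraries 1, 2 and 3. Of the 7, 4 were highest in library 3, 2 in library 2 and 1 in library 1.

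**Figure D1:**
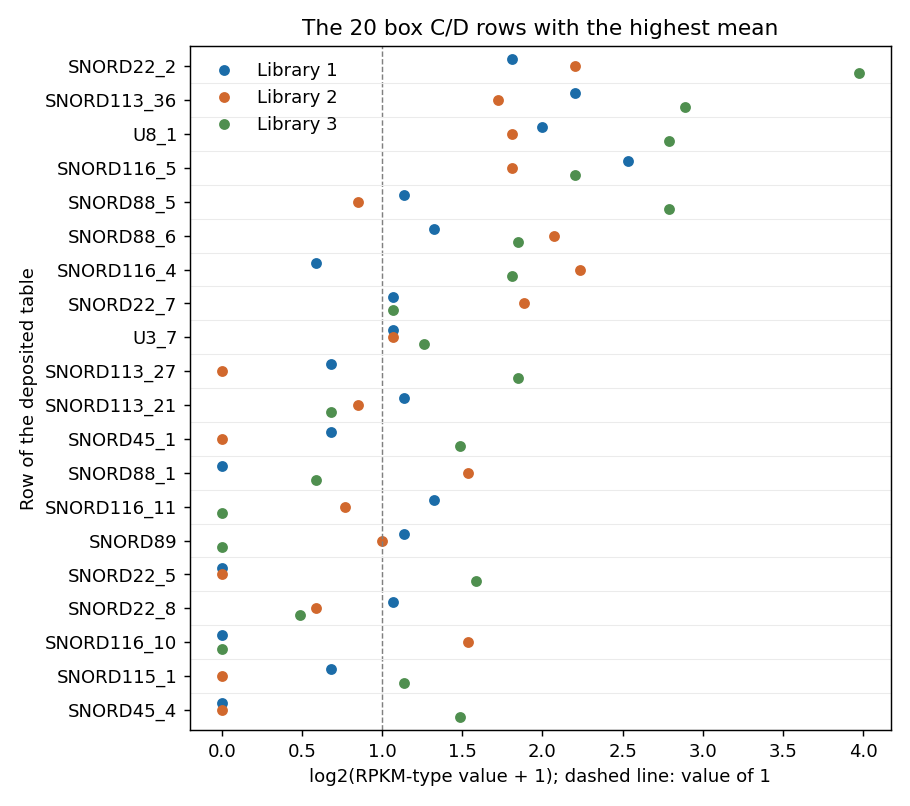
The 20 box C/D rows with the highest mean, from top to bottom, each with its value in the 3 libraries as log2(RPKM-type value + 1). The dashed line marks a value of 1, and only 7 of the 20 rows have all 3 points on or to the right of it, while SNORD22_2 in library 3 lies farthest to the right.

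Among the members needed for cutting the ribosomal precursor, SNORD22 held the highest row of all. SNORD22_2 (ENSOARG00000023033) stood at 2.5, 3.6 and 14.7 in libraries 1, 2 and 3, a mean of 6.93 ± 6.75 (SD, n = 3). Library 3 alone set this mean apart, for without library 3 it was 3.05, below the 3.65 of SNORD116_5 and close to the 2.95 of SNORD113_36. The SD of its log2(value + 1), 1.15, was the largest of the detected members. SNORD22_7 stood at 1.1, 2.7 and 1.1 (1.63 ± 0.92, SD, n = 3), with library 2 highest. The family had 11 rows, of which 8 were above 0 in some library and 4 in all 3. SNORD22_3 lay near the floor at 0.4, 0.5 and 0.4, SNORD22_8 at 1.1, 0.5 and 0.4, and SNORD22_5 at 0, 0 and 2. In human, SNORD22 lies in an intron of the non-coding host gene SNHG1, for which no row matched here.

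U8, which in vertebrates is needed for the maturation of the ribosomal RNAs of the large subunit, was carried almost wholly by 1 of its 8 copies. U8_1 (ENSOARG00000024272) stood at 3, 2.5 and 5.9 (3.8 ± 1.84, SD, n = 3), with library 3 highest. It made up 90.9%, 86.2% and 95.2% of the summed value of the family. The rows U8_8, U8_3 and U8_5 each had a value in 1 library only, of 0.4, 0.3 and 0.3, and the other 4 copies were listed at 0.

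U3, the abundant snoRNA of the small subunit processome, the complex that cuts the precursor of 18S ribosomal RNA, was low in these libraries. U3_7 (ENSOARG00000021229) stood at 1.1, 1.1 and 1.4 (1.2 ± 0.17, SD, n = 3), the smallest spread among the detected rows on the log2 scale, 0.11. Only 0.1 separated it from the detection value in libraries 1 and 2. U3_9 stood at 0, 1.3 and 0, and U3_11 at 0.4, 0.3 and 0.2. Of 13 U3 rows, 8 were listed at 0 throughout. The mean log2(value + 1) over U3 rows minus that over all other box C/D rows was 0.02 ± 0.03 (SD, n = 3), above 0 in 2 libraries and below 0 in 1. By this measure U3 rows did not stand apart from the others beyond the spread between libraries. The difference in mean value, -0.03 ± 0.06, was also within it. The share of rows above 0 was higher in U3 by 8.94 ± 7.89 percentage points, beyond that spread, and the share at 1 or more by 4.55 ± 4.73, within it. The first of these differences was 0.99, 9.07 and 16.8 in libraries 1, 2 and 3, and rests on only 13 U3 rows. Both shares were higher in 3 of 3 libraries.

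SNORD14, the vertebrate U14 that takes part in cutting the precursor and also guides a methylation in 18S ribosomal RNA, had 10 rows and 0 detected. SNORD14_10 and SNORD14_9 both stood at 0.5, 0.6 and 0, and the remaining 8 rows were listed at 0. Over the 4 families of precursor processing, 19 of 42 rows (45.2%) had a value above 0 in some library, against 78.4% of all rows. Of the 42, 4 (9.52%) were detected, against 3.89% of all rows.

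Families that in human lie in imprinted clusters, expressed from 1 parental chromosome, supplied many of the rows with signal. SNORD115 and SNORD116 come from the Prader-Willi region, and SNORD113 and SNORD114, which share a family name here, from the DLK1-DIO3 region. Most of these have no known ribosomal RNA target and are called orphan snoRNAs. All 6 families of these clusters in the table had a row above 0 in some library. Of their 65 rows, 28 did (43.1%), against 27.8% of all box C/D rows and 78.4% of all rows. The families were uneven, with 11 of 15 SNORD116 rows and 11 of 40 SNORD113 rows above 0. The share was not particular to these clusters, for it was 45.2% in families of precursor processing and 41.4% in those with a non-coding host in human. They held 46.6%, 40.8% and 31.3% of the summed box C/D value of libraries 1, 2 and 3.

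SNORD116_5 (ENSOARG00000023037) led the Prader-Willi families with 4.8, 2.5 and 3.6 (3.63 ± 1.15, SD, n = 3), and library 1 was highest. SNORD116_4 stood at 0.5, 3.7 and 2.5 and missed detection because of library 1. SNORD116_11 stood at 1.5, 0.7 and 0, SNORD116_10 at 0, 1.9 and 0, and SNORD116_3 at 0.5, 0.6 and 0.5. Of the 15 SNORD116 rows, 11 were above 0 in some library, and the rows differed in which library was highest. The lowest values above 0 in this family were 0.5, 0.6 and 0.5 in libraries 1, 2 and 3, close to the U6 estimates for 1 read, and recurred in several copies in libraries 1 and 2. SNORD115 was sparser, with SNORD115_1 at 0.6, 0 and 1.2, SNORD115_4 at 0, 0.7 and 0, and 3 rows listed at 0. SNORD107 and SNORD109A_2 each had a value in 1 library, 0.8 in library 2 and 1.4 in library 3.

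SNORD113 had the most copies, 40, and SNORD113_36 (ENSOARG00000024058) stood far above the rest of them. It stood at 3.6, 2.3 and 6.4 (4.1 ± 2.1, SD, n = 3), with library 3 highest, and made up 54.5%, 41.8% and 50.0% of the family's sum. SNORD113_27 stood at 0.6, 0 and 2.6 and SNORD113_21 at 1.2, 0.8 and 0.6. Of the 40 rows, 11 were above 0 in some library and 29 were listed at 0. The related SNORD112 had both of its rows above 0, the higher being SNORD112_2 at 0.6, 0.8 and 0.

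Over the SNORD rows alone, the mean log2(value + 1) of the imprinted-cluster families exceeded that of the other SNORD rows in 3 of 3 libraries. It was 0.24, 0.26 and 0.24 in the imprinted-cluster families, against 0.09, 0.11 and 0.13 in the others. The difference was 0.14 ± 0.03 (SD, n = 3), larger than the spread between libraries. Over rows above 0 in at least 1 library it was 0.04 ± 0.12 (SD, n = 3), within that spread. With 3 libraries an exact sign-flip test cannot go below p = 0.25, so this difference and those between classes below have no test that could pass a threshold. The imprinted-cluster families also have more copies per family, 65 rows in 6 families against 184 rows in the other SNORD families, and the part of copy number was not tested.

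**Figure D2:**
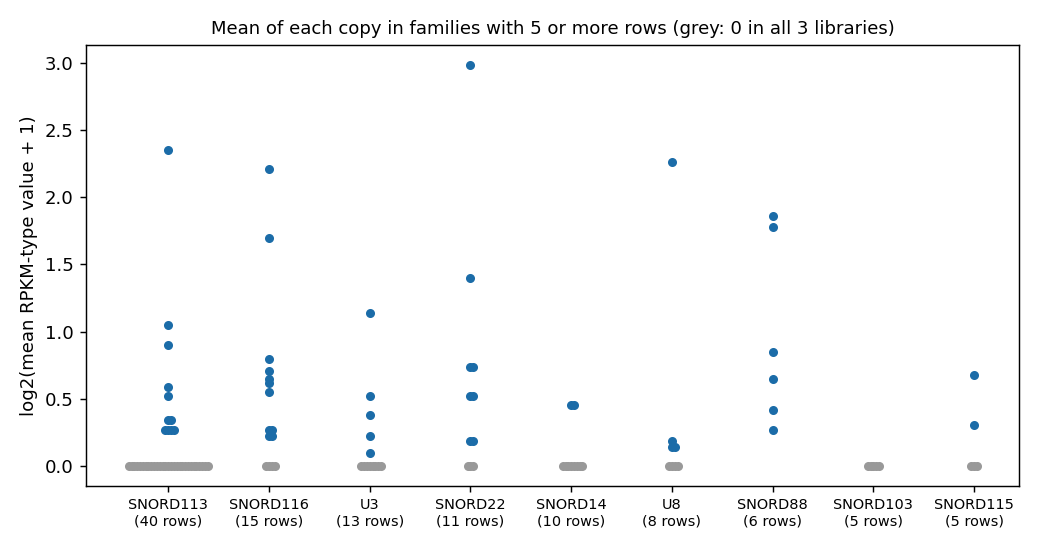
Each point is 1 copy of a box C/D family with 5 or more rows, placed by log2(mean RPKM-type value over 3 libraries + 1), with copies listed at 0 in grey. In SNORD113, U8 and SNORD22 1 copy stands well above the others, and all 5 copies of SNORD103 lie at 0.

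The rows with signal lay mostly in families of many copies. The 9 families with 5 or more copies contributed 113 rows and all 7 detected ones, and 49 of these rows (43.4%) were above 0 in some library. Among 109 rows of families with 2 to 4 copies, 17 (15.6%) were above 0 and 0 were detected. Among 48 families with 1 copy, 9 rows (18.8%) were above 0 and 0 were detected. The 113 rows held 81.7%, 84.4% and 82.5% of the summed box C/D value of libraries 1, 2 and 3. SNORD103 was the exception among the many-copy families, with all 5 rows listed at 0. In box H/ACA rows the shares above 0 were 50.9% of 273 rows in families of 5 or more copies, 41.8% of 98 rows in families of 2 to 4 and 3 of 13 rows in families of 1. The division of reads among near-identical copies is not stated for these values, and the level of a single copy is uncertain.

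SNORD88, a methylation guide family in human, had all 6 of its rows above 0 in some library. SNORD88_6 (ENSOARG00000021421) was detected at 1.5, 3.2 and 2.6 (2.43 ± 0.86, SD, n = 3). SNORD88_5 had a higher mean but reached only 0.8 in library 2, against 1.2 in library 1 and 5.9 in library 3. SNORD88_1 stood at 0, 1.9 and 0.5. The copies were thus highest in different libraries.

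Methylation guides that lie in introns of protein-coding genes in human had few values above 0. Of 42 rows whose families have a ribosomal protein gene as host, 3 (7.14%) were above 0, each in 1 library. They were SNORD35_1 at 1.3 and SNORD33_1 at 0.7, both in library 2, and SNORD83_1 at 0.6 in library 1. Of 55 rows with another protein-coding host, 4 (7.27%) were above 0. These were SNORD45_1 at 0.6, 0 and 1.8, SNORD45_4 at 0, 0 and 1.8, SNORD89 at 1.2, 1 and 0, and SNORD86_3 at 0, 1.3 and 0. The 3 guides of U6 small nuclear RNA in the table, SNORD10, SNORD67 and SNORD94, were listed at 0.

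Of the 29 rows whose human host is a non-coding gene, 12 (41.4%) were above 0, at values of at most 1.6. The SNHG1 families other than SNORD22 had 6 of 11 rows above 0, among them SNORD28_1 at 1.2 in library 1, SNORD31_2 at 1.4 in library 3 and SNORD27 at 0.8 in library 2. The GAS5 families had 2 of 10, SNORD74 at 0.6 in library 1 and SNORD47 at 0.6 in library 3. SNORD99 had values in 2 libraries, 0.8 in library 2 and 0.6 in library 3, and the other 11 rows in 1 library each. None of the 29 was detected.

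**Figure D3:**
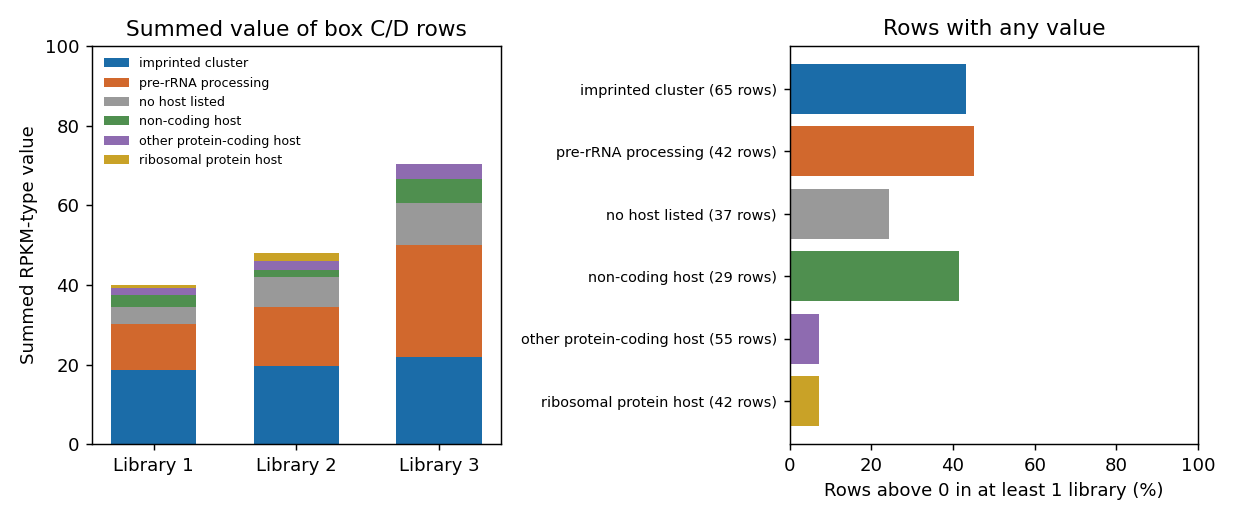
Left, the summed RPKM-type value of box C/D rows in each library, stacked by the role or human host of the family. Right, the share of rows of each class above 0 in at least 1 library, from 7.14% for ribosomal protein hosts to 45.2% for families of precursor processing.

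Messenger RNA of some host genes was abundant where the snoRNA was not. Host genes were assigned from human and matched by symbol, and 37 of 52 had a row. Of these 37, 14 were detected, against 3.89% of all rows. RPL23A, host of SNORD42, had 77.3, 125.1 and 29 in its highest row, RPL23A_1, and both SNORD42 rows were listed at 0. RPS3, host of SNORD15, had 59.8, 127.8 and 9, and the 3 SNORD15 rows were listed at 0. RPL23A and RPS3 were named after their values were seen, as matched ribosomal protein hosts of high level. Other ribosomal protein hosts were not detected, among them RPL21, RPL3 and RPL5.

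Over the 33 host genes with both a row of their own and snoRNA rows, the share of snoRNA rows above 0 was compared between hosts with and without a detected messenger. The 13 detected hosts had 52 snoRNA rows, of which 5 (9.62%) were above 0, and the 20 hosts not detected had 39 rows, of which 4 (10.3%) were above 0. The mean level of the 13 detected hosts ranged between 1.7 and 77.1, and the highest mean of their snoRNAs was 0.43. In 2 cases the highest snoRNA row had a higher mean than its host, SNORD45_1 with 0.8 against 0.67 for RABGGTB, and SNORD89 with 0.73 against 0.13 for RNF149. RNF149 stood at 0, 0.3 and 0.1 while SNORD89 stood at 1.2, 1 and 0.

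**Figure D4:**
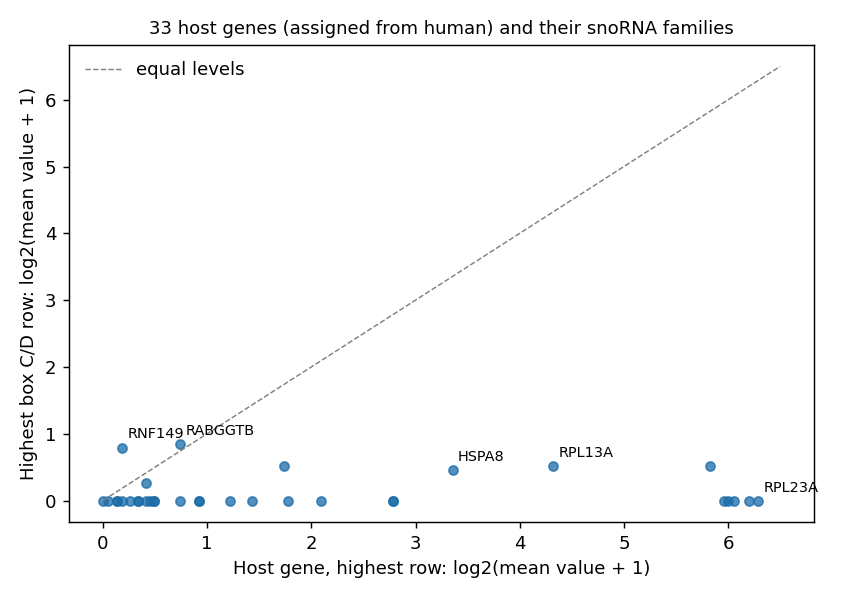
Each point is 1 of 33 host genes, with the mean of its highest row on the horizontal axis and that of the highest row of its box C/D families on the vertical axis, both as log2(mean RPKM-type value + 1). The points run along the bottom of the plot, far below the dashed line of equal levels for the ribosomal protein hosts RPL23A and RPL13A.

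Messengers for the proteins of box C/D particles were present in all 3 libraries. NOP56 and NOP58, the paired scaffold proteins, were detected, at 1.2, 3.4 and 2.4 (2.33 ± 1.1) and at 1.1, 3.1 and 1.4 (1.87 ± 1.08; both SD, n = 3). FBL, the methyltransferase fibrillarin, stood at 2.9, 12 and 0.1 and missed detection because of library 3. NHP2L1, the protein that first binds the snoRNA, stood at 0.3, 3.1 and 0.7. All 4 were highest in library 2, whereas the summed box C/D RNA was highest in library 3. This contrast was not particular to them. The mean value of all rows not from Rfam was 0.73, 1.73 and 0.37 in libraries 1, 2 and 3, and that of all Rfam rows was 0.42, 0.37 and 0.48. Among the 4 core proteins of box H/ACA particles, NHP2 (1.9, 11.8 and 2.6), NOP10 (2.8, 2.6 and 1) and GAR1 (1.3, 4.6 and 1.3) were detected, and the pseudouridine synthase DKC1 (0.5, 2.1 and 0) was not.

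Of 12 genes for assembly and trafficking of these particles, 1 was detected, RUVBL1, an ATPase of the assembly complex, at 1.3, 2.7 and 1.7. PHAX, an export adaptor, stood at 0.4, 3.7 and 1.7, NOLC1 at 1.7, 2.2 and 0.4 and ZNHIT3 at 1.2, 2.2 and 0.7. The means of the other 8 lay between 0.17 and 0.53. Of 11 proteins that work with U3 in the small subunit processome, UTP6 was detected at 1.1, 1 and 1, and the means of the other 10 lay between 0.1 and 0.93. In all, 7 of 31 genes in the 4 lists were detected (22.6%), against 3.89% of all rows. The lists were not matched on gene length or level with other genes.

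Set against box H/ACA rows, box C/D rows had a lower share of values above 0 in 3 of 3 libraries. The share was 14.4%, 14.4% and 14.8% of box C/D rows, against 31.5%, 28.4% and 27.6% of box H/ACA rows, a difference of -14.6 ± 2.21 percentage points (SD, n = 3). At a value of 1 or more the shares were 5.19%, 5.93% and 6.67% of box C/D rows, against 12.8%, 8.85% and 11.2% of box H/ACA rows and 9.37%, 13.6% and 7.88% of all rows, a difference between the snoRNA classes of -5.01 ± 2.36 percentage points (SD, n = 3). Both differences were larger than the spread between libraries. The value of 1 read depends on the length of a row, and lengths were not used. The lower quartile of values above 0 was 0.5, 0.65 and 0.5 in box C/D rows and 0.4, 0.4 and 0.4 in box H/ACA rows. The part of row length in these differences was not tested. The share detected in all 3 libraries was 2.59% of box C/D rows, against 3.91% of box H/ACA rows (15 of 384), a difference of -1.31 percentage points. This last difference was smaller than the spread of the difference at a value of 1 between libraries. It was -1.46 without library 1, -3.55 without library 2 and -3.29 without library 3, where only the remaining libraries had to reach 1.

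In level per length the order of the classes was the same. The mean over all rows was 0.15, 0.18 and 0.26 for box C/D, against 0.43, 0.31 and 0.45 for box H/ACA. The mean log2(value + 1) differed by -0.14 ± 0.04 (SD, n = 3), below 0 in 3 of 3 libraries, and by -0.07 ± 0.11 (SD, n = 3) over rows above 0 in at least 1 library, which is within the spread between libraries. The 5 highest box H/ACA rows were SNORA14_1 (9.3, 5.5 and 13), SNORA84 (7.4, 2.2 and 10.7), SNORA3_2 (2.1, 4 and 8.8), SNORA79_9 (6.9, 3.9 and 3.8) and SNORA42_14 (2.6, 1.2 and 8.9). The highest of all, SNORA14_1, had a mean of 9.27 ± 3.75 (SD, n = 3), and SNORD22_2, with a mean of 6.93, lay between it and SNORA84, with 6.77. The median of values above 0 was 0.6, 0.8 and 0.7 in box C/D rows and 0.7, 0.8 and 0.4 in box H/ACA rows. These medians rest on few reads, as 1 read in a U6 row was worth an estimated 0.42, 0.54 and 0.45. The value of 1 read also depends on row length, so the medians do not show whether the classes differed less in level where a row had a value.

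Most box C/D rows with a value above 0 had one in a single library only. Of the 75 box C/D rows above 0 anywhere, 46 were so in 1 library, 15 in 2 and 14 in all 3 (18.7%), against 49.5% of all rows of the table that were above 0 anywhere. Of the box H/ACA rows above 0 anywhere, 46 of 183 (25.1%) were so in all 3. For U6 rows the figure was 117 of 467 (25.1%). These shares were not tested against each other, and the part of row length in them was not tested.

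**Figure D5:**
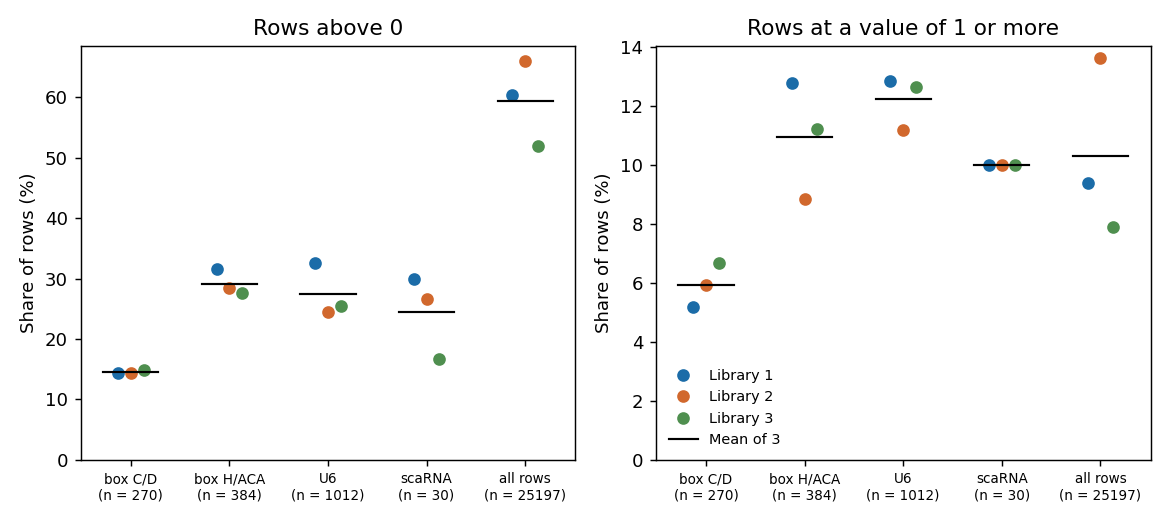
Shares of rows above 0 (left) and at a value of 1 or more (right) in each library, with the mean of 3 libraries as a bar, for box C/D, box H/ACA, U6 and small Cajal body RNA (scaRNA) rows and for all rows of the table. Box C/D rows have the lowest share in every library among these classes in both panels.

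Against U6 rows, another nuclear RNA of many copies, box C/D rows were also lower. The share at a value of 1 or more was 5.19%, 5.93% and 6.67% of box C/D rows, against 12.8%, 11.2% and 12.6% of 1012 U6 rows, a difference of -6.29 ± 1.24 percentage points (SD, n = 3). Detection in all 3 libraries reached 2.59% of box C/D rows and 4.64% of U6 rows. The part of row length in these differences was not tested. The 476 olfactory receptor genes, taken as a gauge of stray reads, averaged 0.22, 0.17 and 0.18. The mean box C/D level was 0.15, 0.18 and 0.26, so the difference in mean value from these genes, 0.005 ± 0.07 (SD, n = 3), was within the spread between libraries. The other measures differed beyond that spread and not all in 1 direction: the box C/D share at a value of 1 or more was higher by 3.05 ± 1.41 percentage points, the share above 0 differed by -55.4 ± 5.18 percentage points and the mean log2(value + 1) by -0.068 ± 0.043 (SD, n = 3), each with the same sign in 3 of 3 libraries. The median of the olfactory receptor genes was 0.1 in each library, while the lowest box C/D values above 0 were 0.3, 0.3 and 0.2. Values are scaled for gene length, so the shares above 0 compare unlike rows, and the part of length was not tested. Of the olfactory receptor genes, 3 met the rule for detection (0.63%). The 99th percentile of these genes was 1.45, 1.02 and 1.75 in libraries 1, 2 and 3. Of the 7 detected box C/D rows, 5 lay above it in every library, while U3_7 and SNORD22_7 lay below it in libraries 1 and 3. The 7 rows were chosen for reaching 1 in every library, close to this percentile. The outcome was thus largely set by that choice, and no conclusion is drawn from it.

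The box C/D share of a library moved with the library. Box C/D rows summed to 39.9, 48 and 70.3 in libraries 1, 2 and 3, which is 0.23%, 0.12% and 0.74% of the summed value. Box H/ACA rows summed to 165.7, 117.9 and 173.7, or 0.95%, 0.29% and 1.82%, and all Rfam rows to 6.40%, 2.45% and 13.2%. Library 3, with the lowest summed value of all rows, thus had the highest share of each class and library 2 the lowest. The box C/D sum itself was highest in library 3, where SNORD22_2 alone gave 14.7 of 70.3. Among the 75 rows above 0, 19 were highest in library 1, 28 in library 2 and 27 in library 3, and 1 was tied.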

How the data were processed

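Vesicle RNA was sequenced in 3 libraries (paired ends, 50 bp each), as the labels' protocols state. The authors deposited 1 value per library and their mean, with no unit named. The deposited values were taken as RPKM rounded to 1 decimal, since columns sum to different totals and 0 U6 values above 0, against 52.7%, 46.5% and 62.8% of such values in rows not from Rfam, lie below 0.3 in libraries 1, 2 and 3 (FPKM would look alike). Oar v3.1 is the build in the submitters' processing notes, with the aligner, counter and handling of multi-mapped reads not stated in the labels or the file. Coordinates are not in the table, and 0 of the 270 members matched the RefSeq gene table by identifier or name.

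Columns were assigned by title and library numbers follow accession order. The libraries were not copies: of 1838, 1122 and 1275 rows at 1 or more in both libraries of a pair, 40, 38 and 28 had equal values in the pairs 1 and 2, 1 and 3, and 2 and 3. Levels were compared as log2(value + 1), which understates differences of low rows, with no filter. The value of 1 read was estimated from the step of low U6 values, a procedure tested on simulated data and revised until it recovered the simulated steps, so that test is no measure of its error on these values. Gene lengths were not used, so no count model or counting interval was made.

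The members and lists were chosen with earlier results of these data known. Named rows are the 20 with the highest mean, the leading row of each detected family, the 3 leading U3 rows, U8 rows, the 5 detected rows with the largest SD of log2(value + 1), the 5 leading box H/ACA rows and the particle proteins. Others were named after their values were seen, and some host genes that enter the counts are not reported here by name. Alternatives were other detection values, pseudocounts, a filter, U6 scaling, other memberships and leaving out each library. Computations used Python 3.11.15, pandas 2.3.3 and NumPy 2.4.6.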

Additional observations from a re-analysis of the deposited data

How the results depend on the processing

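Of 84 recomputed values over 11 results, 54 stayed close to the reported one, 27 moved and 3 changed sign. A count was taken to have moved when it changed by more than 1.5 times, and any other value when it changed by more than the spread between libraries, so that some values counted as close changed by more than 1.5 times. The number of box C/D rows detected, 7, was 11 at a detection value of 0.5, 4 at 2 and 14 at any value above 0. It was 11 with the older-named families added, and 8 without any one replicate. Without a replicate only the remaining libraries had to reach the value, so no count of detected rows, families or genes could fall. Detected families numbered 6 or 7 without a replicate. The box C/D minus box H/ACA difference in the share detected, -1.31 percentage points, was -6.79 at any value above 0, -5.67 for detection in at least 2 libraries and -21.1 with families summed over their copies. Without a replicate it ranged between -3.55 and -1.46. The same difference in mean log2(value + 1), -0.14, was -0.22 and -0.46 at pseudocounts of 0.5 and 0.1, -0.072 over rows above 0 in at least 1 library and -0.23 after scaling by the U6 step. It ranged between -0.16 and -0.12 without a replicate. The box C/D minus U6 difference in the share detected, -2.05 percentage points, was -4.62 at a detection value of 0.5, -6.38 at any value above 0 and -5.98 in at least 2 libraries, and between -3.76 and -2.77 without a replicate. The mean share of the library sum, 0.36%, ranged between 0.17% without replicate 3 and 0.48% without replicate 2.

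The U3 results turned on the setting. The difference in share detected, U3 minus other box C/D, was 5.36 percentage points, but -1.56 at a detection value of 2 and 10.7 at any value above 0, and 4.97 without any one replicate. The difference in mean log2(value + 1), 0.02, was 0.15 at a pseudocount of 0.1 and -0.12 over rows above 0, and between -0.00038 (without replicate 2) and 0.033 without a replicate. The imprinted-cluster minus other SNORD difference, 0.14, was 0.21 and 0.43 at pseudocounts of 0.5 and 0.1, 0.042 over rows above 0 and 0.21 after scaling by the U6 step, and between 0.13 and 0.15 without a replicate. Particle protein genes detected, 7, numbered 0 at a value of 2, 22 at any value above 0, 12 in at least 2 libraries and between 7 and 11 without a replicate. Host genes detected, 14, numbered 26 at any value above 0 and 15 or 16 without a replicate. The cause was not tested in any of these cases. No paired analysis was possible because the design has 1 group. By the estimate, a value of 1 in a row of U6 length rests on about 2 reads. Scaling by the U6 step carries the rough fit of that step, loosest in library 3 at the tolerance of 0.1 of a step.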

Other observations

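Box C/D families that the table lists under older names fall outside the members by name. There are 54 such rows in 16 families, of which 13 (24.1%) were above 0 in some library, against 27.8% of the members, and 4 (7.41%) were detected, all in the 2 families snoZ30 and snoU13, against 2.59% of the members and 3.89% of all rows. snoZ30 stood at 3.7, 4.1 and 3.4 (3.73 ± 0.35, SD, n = 3), with less spread between libraries than the box C/D rows of like level, such as U8_1 (3.8 ± 1.84). snoU13, known in human as SNORD13 and needed for the processing of 18S ribosomal RNA, had 3 of 11 rows detected. These were snoU13_9 at 3.4, 2.7 and 2.3, snoU13_4 at 1.7, 2.2 and 2.7, and snoU13_10 at 2.6, 1.1 and 1.8. A further copy, snoU13_1, stood at 0, 1.6 and 1.4.

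Small Cajal body RNAs, relatives of the snoRNAs that guide the modification of spliceosomal RNAs, had 30 rows. Of these, 11 (36.7%) were above 0 in some library, against 78.4% of all rows, and 2 (6.67%) were detected, against 3.89%. SCARNA17_1 stood at 5.4, 1.2 and 2.7 and SCARNA15_3 at 1.1, 2.3 and 3. SCARNA18_3 stood at 1.6, 2.8 and 0, and SCARNA18_2 at 0.5, 0.7 and 0.6.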
